A study of Homo sapiens with 12 samples.

Results

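The genes described here are 9 antioxidant and NADPH-supplying genes commonly listed as targets of NRF2: HMOX1, NQO1, TXNRD1, SRXN1, OSGIN1, ME1, PGD, TXN and PRDX1. Their rows were taken by gene name, the list itself having been drawn up with earlier results of these data known, and all 9 were found among the 23153 genes shared by 3 deposited expression tables. RNA was sequenced from K562, a human leukemia cell line with erythroid features, grown with or without fatty acids bound to albumin. Experiment 1 compared wild-type (WT) cells without fatty acid, with palmitate and with palmitoleate. Experiment 2 compared WT cells without fatty acid, with palmitate and with a mixture of both acids, beside cells labelled GPAT4ko that received palmitate. Experiment 3 had WT cells and cells labelled RNF213kd, each untreated and given palmitate. Palmitate was given at 0.2 mM, for 20 h per the labels and for 16 h per the legends inside 2 of the tables. Palmitoleate was at 0.2 mM in the mixture, and its dose when given alone is not given in the sources used here. GPAT4 is an acyltransferase that begins glycerolipid synthesis, RNF213 is a large ubiquitin ligase, and the labels do not say whether the altered cells are single clones. Per the series' design text RNA of biological triplicates was pooled before library preparation, although the names of the libraries given palmitate alone in experiment 2 span a shorter range of numbers than those of the other libraries in that experiment. In all, 11 libraries were used, 3 each for untreated WT and WT with palmitate and 1 for every other condition. The labelled untreated GPAT4ko library was not analysed here.

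NRF2 is a transcription factor encoded by NFE2L2 that KEAP1 marks for degradation under basal conditions. When oxidants or electrophiles modify KEAP1, NRF2 accumulates, pairs with a small MAF protein and binds antioxidant response elements near its target genes, where BACH1 can compete for the same sites. Its targets include enzymes that detoxify quinones, rebuild reduced thioredoxin and glutathione, break down heme and supply NADPH. Palmitate is a saturated fatty acid that is toxic to many cells in excess, and palmitoleate has the same chain length with a double bond.

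The core of the antioxidant response element, TGACNNNGC, was searched on both strands around the start of the deposited locus of the 7 genes that have an entry in the RefSeq promoter table. Of these 7, 6 had a match in a window from 1000 bases before to 250 bases after the start (GRCh37, the assembly that hg19 denotes), as did 38.3% of 14616 loci searched in the same way. This window was the third of 3 searched, and it was chosen after matches of the first 2 had been seen. The RefSeq promoter table itself (GRCh38, 250 bases before to 50 after) had a match in 3 of the 7 genes and in 13.3% of all its promoters. The 1000 bases before the start had one in 5 of the 7 genes and in 31.5% of loci. The matches are printed to show where the core occurs, and the genes were not chosen by it. They run 5′ to 3′ along the gene, with the 9 matched bases in capitals and up to 10 flanking bases in lower case. A core read on the opposite strand appears as GCNNNGTCA.
NQO1, chr16:69760900-69760928, minus strand: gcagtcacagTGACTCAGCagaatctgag
TXNRD1, chr12:104609448-104609476, plus strand: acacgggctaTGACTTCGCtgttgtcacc
TXNRD1, chr12:104609539-104609567, plus strand: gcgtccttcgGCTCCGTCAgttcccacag
TXNRD1, chr12:104609783-104609808, plus strand: agtcagtgacTGACCGCGCgccacgc
OSGIN1, chr16:83986278-83986306, plus strand: agacaatctgTGACTTGGCcccagttttc
ME1, chr6:84140889-84140917, minus strand: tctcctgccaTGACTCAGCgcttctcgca
ME1, chr6:84140741-84140769, minus strand: gctgcagtcaGCACCGTCAccccagcagc
ME1, chr6:84140689-84140712, minus strand: cgccccggccTGACCCCGCcgccg
PGD, chr1:10458910-10458938, plus strand: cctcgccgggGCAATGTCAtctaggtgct
TXN, chr9:113019350-113019378, minus strand: gcactaaaccGCTGTGTCAagctggagca

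Overlaps with annotation were read for each printed stretch, flanking bases included. The NQO1 match begins 385 bases before the locus start, and its stretch overlaps an exon of the divergent transcript NQO1-DT. The first ME1 match begins at base 32 of the deposited locus, where GENCODE annotates no gene. The stretches of the other ME1 matches overlap an ME1 exon. The TXNRD1 matches begin 101 and 10 bases before the start and at base 235 after it. The stretch of the middle one overlaps a TXNRD1 exon. The OSGIN1 match lies 539 bases before the start and the PGD match 165 bases before it. Their stretches overlap the GENCODE extent of those genes and no exon. The TXN match lies 448 bases before the start, outside any annotated gene. SRXN1 had no match in the window. A match is a string of letters and not a measured binding site.

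Libraries differed little in breadth, with 10495 to 11108 genes at 1 FPKM (fragments per kilobase of transcript, scaled to library size) or more. Read counts are unknown, so no counting interval is given. GPAT4, listed as AGPAT6, was at 8.77 FPKM in the GPAT4ko library against 20.0 FPKM in WT cells with palmitate. RNF213 was at 1.39 and 1.54 FPKM in the RNF213kd libraries, untreated and with palmitate, against 1.96 and 3.08 FPKM in WT cells. All 15 erythroid markers of K562 were found above 1 FPKM in at least 1 library, with a summed level of 5278 to 11708 FPKM in the 5 libraries given palmitate alone and of 10331 to 18535 FPKM in the other 6. Among markers of other cell types, the epithelial sum, led by KRT18, was 368 to 1395 FPKM in those 5 libraries against 234 to 478 FPKM in the other 6, and the monocyte sum, led by CD68, was 52.0 to 173 FPKM against 51.1 to 99.4 FPKM. CD3D of T cells reached 39.5 FPKM, and the B cell, fibroblast and endothelial sums stayed at 3.04 FPKM or less. The part of these marker changes in the results was not tested. In bulk RNA, fewer cells of one kind and less RNA per cell cannot be told apart.

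In untreated WT cells, PRDX1, a peroxiredoxin that reduces hydrogen peroxide, was the highest at 1149 to 1478 FPKM. It was followed by TXN, the cytosolic thioredoxin, at 419 to 466 FPKM, and by PGD, the NADPH-making 6-phosphogluconate dehydrogenase, at 239 to 273 FPKM. TXNRD1, the NADPH-using reductase of thioredoxin, was at 85.5 to 109 FPKM, and NQO1, a quinone reductase, at 31.0 to 66.1 FPKM. SRXN1, the sulfiredoxin that repairs overoxidized peroxiredoxins, was at 16.1 to 30.9 FPKM, and ME1, the cytosolic malic enzyme that yields NADPH, at 4.01 to 8.53 FPKM. OSGIN1, an oxidative stress-induced growth inhibitor, was at 0.945 to 3.30 FPKM. No 2 neighbours in this order overlapped over the 3 untreated libraries, although NQO1 and SRXN1 came close and the 3 tables were normalized separately.

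HMOX1 (chr22:35777060-35790207), the inducible heme oxygenase, was listed at 0 in 8 of 11 libraries. It was listed at 0.0228 FPKM in untreated WT cells of experiment 2, at 0.0385 FPKM in WT cells with palmitate of that experiment and at 0.0441 FPKM in the palmitoleate library. In the deposited comparisons HMOX1 had the status NOTEST in all 11, where every other member had the status OK. A listed 0 can be a failed estimate, so these values do not show that the gene was silent, and no fold change or test is given. RPL21, a ribosomal protein gene, was listed at 0 in 1 library, and GPX1, a glutathione peroxidase of most cells, at 0.0716 to 0.640 FPKM over the 11 libraries. HMOX2, the constitutive heme oxygenase, was at 14.4 to 36.4 FPKM.

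**Figure D1:**
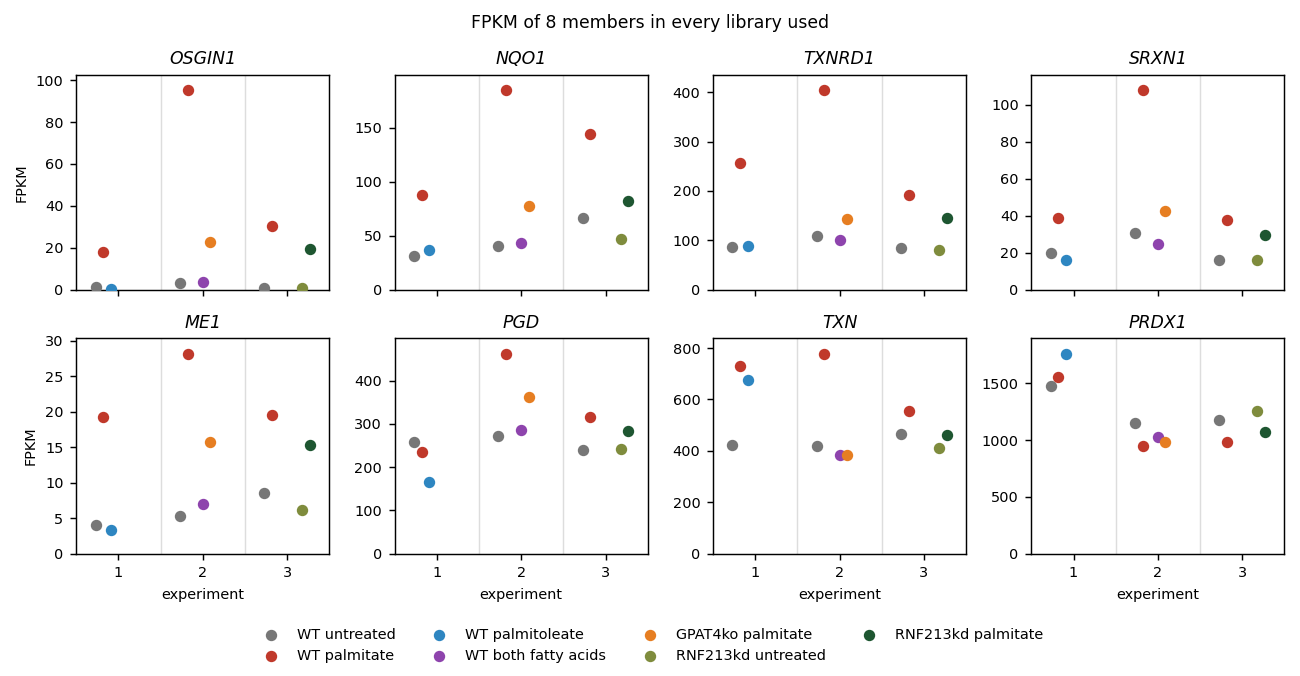
FPKM of 8 members (y axis, linear from 0, a scale for each gene) in the 11 libraries by experiment (x axis), 1 point per library, coloured by condition. OSGIN1, NQO1, TXNRD1, SRXN1 and ME1 were highest in WT cells with palmitate in each experiment, and PRDX1 ranged from 951 to 1755 FPKM.

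Palmitate raised 5 of the 8 tested members in WT cells and lowered 0. OSGIN1, ME1, NQO1, TXNRD1 and SRXN1 passed an adjusted p under 0.05 in limma (n = 3 experiments), by 2.45-fold to 14.3-fold on the log2(FPKM + 1) scale. Over all 11075 genes tested by the same fit, 6.59% were called higher and 3.84% lower, and 3610 genes had an unadjusted p under 0.05 in either direction. The median log2 ratio of the 8 members was 1.41, beside -0.06 over all tested genes. The members' median was 1.20, 1.82 and 1.11 in experiments 1, 2 and 3. These calls rest on 3 ratios: without experiment 2, 4 of the 5 remained called (SRXN1 had an adjusted p of 0.0737), and without experiment 1 or without experiment 3 no member and no gene at all was called by limma, with 4474 and 2330 genes at an unadjusted p under 0.05. With no filter on low values the count was likewise 0 members of 9 and 0 genes, with 3905 genes at an unadjusted p under 0.05. The lowest adjusted p over all genes (limma) was 2.78e-138 without experiment 2, against 0.00984 with all 3 experiments. The calls kept without experiment 2 are therefore not read as a sign of robustness.

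OSGIN1 (chr16:83986827-83999937) had the highest ratio of the 8. Untreated WT cells had 1.34, 3.30 and 0.945 FPKM in experiments 1 to 3, and WT cells with palmitate had 18.0, 95.0 and 30.5 FPKM. The lowest palmitate library was above the highest untreated one, and experiment 2 had the highest level in both conditions. The log2 ratio was 3.84 ± 0.31 (SE, n = 3; adjusted p = 0.0120, limma). Without palmitate OSGIN1 was the lowest of the 8 tested members in untreated WT cells, and with palmitate it lay above ME1 in experiments 2 and 3.

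ME1 (chr6:83920110-84140938) rose from 4.01, 5.35 and 8.53 FPKM to 19.2, 28.1 and 19.5 FPKM. The palmitate levels of experiments 1 and 3 were close, while the untreated level of experiment 3 was the highest of the 3, and the groups did not overlap. The log2 ratio was 1.77 ± 0.27 (SE, n = 3; adjusted p = 0.0265, limma).

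NQO1 (chr16:69743304-69760533) was at 31.0, 40.3 and 66.1 FPKM in untreated cells and at 87.5, 185 and 145 FPKM with palmitate. All 3 palmitate libraries were above all untreated ones, and experiment 3 had the highest untreated level. The log2 ratio was 1.58 ± 0.26 (SE, n = 3; adjusted p = 0.0283, limma), the ratio of a single experiment running from 1.12 to 2.17.

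TXNRD1 (chr12:104609559-104744062) was at 85.9, 109 and 85.5 FPKM in untreated cells and at 258, 403 and 191 FPKM with palmitate. The untreated libraries lay close together and the palmitate libraries were all above them. The log2 ratio was 1.53 ± 0.22 (SE, n = 3; adjusted p = 0.0219, limma). The gene shares its deposited locus with EID3, and how reads in the overlap were divided is not given in the sources used here.

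SRXN1 (chr20:627268-633890) went from 20.0, 30.9 and 16.1 FPKM to 38.8, 108 and 37.8 FPKM. The groups did not overlap, and the palmitate library of experiment 2 stood above the other two. The log2 ratio was 1.29 ± 0.24 (SE, n = 3; adjusted p = 0.0329, limma).

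TXN, PGD and PRDX1, the 3 most abundant members, did not pass the test. TXN (chr9:113006092-113018920) was at 423, 419 and 466 FPKM in untreated cells and at 730, 776 and 555 FPKM with palmitate. Its groups did not overlap and all 3 ratios were above 0, and the log2 ratio was 0.64 ± 0.20 (SE, n = 3; adjusted p = 0.0943, limma). PGD (chr1:10459085-10480201) was at 259, 273 and 239 FPKM in untreated cells and at 234, 461 and 317 FPKM with palmitate. It was lower with palmitate in experiment 1 and higher in experiments 2 and 3, with a log2 ratio of 0.34 ± 0.23 (SE, n = 3; adjusted p = 0.350, limma). PRDX1 (chr1:45965856-45988562), which shares its locus with MMACHC, was at 1478, 1149 and 1179 FPKM in untreated cells and at 1556, 951 and 987 FPKM with palmitate. Its groups overlapped, and the log2 ratio was -0.15 ± 0.17 (SE, n = 3; adjusted p = 0.580, limma), with a 95% interval from -0.58 to 0.28.

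**Figure D2:**
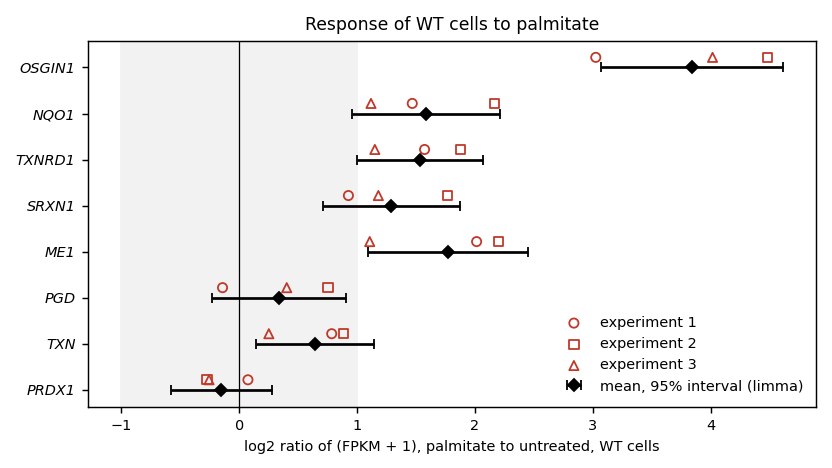
Log2 ratio of FPKM + 1, palmitate to untreated WT cells (x axis), for 8 members (y axis). Open symbols are the 3 experiments, diamonds are means with 95% limma intervals, and the grey band spans changes of less than 2-fold. OSGIN1 lies at 3.84, and the intervals of PGD and PRDX1 hold 0.

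Other genes of the pathway were read from lists that, like the members, were chosen with earlier results of these data known. The median log2 ratio of 26 tested other NRF2 targets was 1.27. Of these 26, 14 were called higher and 0 lower, beside 6.59% and 3.84% of all genes. They included SLC7A11, the cystine importer, at 3.06 ± 0.23 (adjusted p = 0.0120), SQSTM1, an autophagy receptor that binds KEAP1, at 2.97 ± 0.20 (adjusted p = 0.0120), TRIM16 at 2.11 ± 0.29 (adjusted p = 0.0209) and GCLC, the catalytic subunit of glutathione synthesis, at 2.00 ± 0.21 (adjusted p = 0.0141; SE, n = 3, limma for each). Some called genes of this list, AKR1C1, AKR1C2 and AKR1C3, and TRIM16 and TRIM16L, are near-identical copies whose reads may be split between them. The list lost all its calls where the members lost theirs, with 0 called without experiment 1, without experiment 3 or with no filter. Of its 33 genes 9 also belong to another list, and the calls of SQSTM1, IDH1, FTH1 and FTL are counted again below.

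A list of 13 genes held NFE2L2, regulators of NRF2 activity and related factors such as NFE2 and NFE2L1. Of these 13, 6 were called higher, 1 lower and 6 not called, beside 6.59% of all genes called higher and 3.84% lower. NFE2L2, which encodes NRF2, was at 27.5, 31.6 and 33.7 FPKM in untreated WT cells and at 71.1, 99.1 and 72.1 FPKM with palmitate. Its groups were apart, with a log2 ratio of 1.34 ± 0.21 (SE, n = 3; adjusted p = 0.0257, limma). BACH1, the competing repressor, had a log2 ratio of 1.37 ± 0.23 (adjusted p = 0.0295, limma). KEAP1 did not pass, at -0.24 ± 0.23 (adjusted p = 0.508, limma). MAFF, a small MAF protein, rose by 2.45 ± 0.32 on the log2 scale (adjusted p = 0.0189, limma), BACH2 by 1.95 ± 0.24 (adjusted p = 0.0183, limma), and NFE2, an erythroid relative of NRF2, fell by 2.78 ± 0.46 (adjusted p = 0.0295, limma).

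Of 15 tested other NADPH supply genes, 3 were called higher and 1 lower, beside 6.59% and 3.84% of all genes. The median log2 ratio was 0.07, and 4 genes of this list also belong to another. ALDH1L2, a mitochondrial folate enzyme, was at 2.87 ± 0.26 (adjusted p = 0.0126), IDH1, the cytosolic isocitrate dehydrogenase, at 1.55 ± 0.23 (adjusted p = 0.0238) and MTHFD1, a cytosolic folate enzyme, at -1.07 ± 0.23 (adjusted p = 0.0460, limma for each).

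Of 14 tested other thioredoxin, peroxiredoxin and glutaredoxin genes, 2 were called higher and 1 lower, with a median of -0.01. Over all genes 6.59% were called higher and 3.84% lower, so counts this small are not read as a trait of the list. The calls were GLRX at 1.03 ± 0.22 (adjusted p = 0.0451), TXNIP, an arrestin-like protein that binds thioredoxin, at 0.96 ± 0.20 (adjusted p = 0.0434), and PRDX2 at -0.84 ± 0.19 (adjusted p = 0.0494, limma for each). None of the 4 tested superoxide and peroxide enzymes was called by limma, with values from -0.92 ± 0.24 for CAT (adjusted p = 0.0646) to 0.15 ± 0.18 for GPX4, and 2 of the 4 had an unadjusted p under 0.05. In the heme and ferritin list 2 of 8 were called higher, beside the same 6.59% of all genes. Both are ferritin chains, which are also among the called other NRF2 targets. FTH1 went from 1737, 2300 and 1172 FPKM to 2896, 8314 and 3886 FPKM, and FTL had a log2 ratio of 1.10 ± 0.20 (SE, n = 3; adjusted p = 0.0317, limma). In all, 4 genes of this list also belong to another.

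In experiment 1 the members were compared between palmitate and palmitoleate. With 1 library per condition there is no replicate, and because the dose of palmitoleate alone is unknown the values are set side by side. A 2-fold rule was used for calls, the direction counted was set after the members' levels were seen, and intervals assume that a pair of single libraries varies as the WT palmitate ratios do between experiments. NQO1 was at 31.0 FPKM untreated, 87.5 FPKM with palmitate and 36.6 FPKM with palmitoleate. OSGIN1 was at 1.34, 18.0 and 0.510 FPKM in that order, and TXNRD1 at 85.9, 258 and 88.8 FPKM. The palmitoleate levels of these 3 were near or below the untreated ones. ME1 was at 3.36 FPKM and SRXN1 at 16.0 FPKM with palmitoleate. Against untreated cells 0 of 8 members passed 2-fold, beside 7.21% of all genes, and against palmitate 5 of 8 were past 2-fold lower, beside 4.66% of all genes. For TXN, palmitate (730 FPKM) and palmitoleate (675 FPKM) both lay above the untreated 423 FPKM. PGD was lowest with palmitoleate, at 167 FPKM, and PRDX1 was highest there, at 1755 FPKM. After adjustment over all genes no member passed 0.05 for palmitoleate against palmitate (limma, adjusted p = 0.363 to 1, 558 genes at an unadjusted p under 0.05). The same test called 9 of all 11075 genes, so the count of 0 says little about the members.

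The palmitoleate against untreated log2 ratio was 0.67 (95% interval -0.20 to 1.54) for TXN and -0.63 (-1.97 to 0.71) for OSGIN1. With the GC trend removed these ratios were 0.27 and 0.14. In that setting ME1 went from -0.20 to -0.54 and PGD from -0.63 to -0.45. The cause of these shifts was not tested. The palmitate ratio of WT cells was related to GC content in experiment 1 (Spearman's rho -0.63 across genes, which are not independent replicates). It was less so in experiments 2 and 3 (-0.02 and 0.15). With the GC trend removed the 5 members called higher with palmitate were again 5.

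In experiment 2 WT cells were given palmitoleate together with palmitate. NQO1 was at 40.3 FPKM untreated, 185 FPKM with palmitate and 43.0 FPKM with both. TXNRD1 was at 109, 403 and 100 FPKM, SRXN1 at 30.9, 108 and 24.7 FPKM, OSGIN1 at 3.30, 95.0 and 3.51 FPKM, and ME1 at 5.35, 28.1 and 7.02 FPKM in the same order. For these 5 the log2 ratios of the mixture to untreated ran from -0.31 to 0.34. PGD was at 286 FPKM and TXN at 384 FPKM with both. Against untreated cells 0 of 8 members passed 2-fold, beside 1.7% of all genes, and against palmitate 6 of 8 were past 2-fold lower, beside 10.2% of all genes. The sixth was TXN, at a log2 ratio of -1.01 (95% interval -1.88 to -0.15). For each of these 6 the WT palmitate ratio of this experiment was the highest of the 3 experiments (OSGIN1 4.48, TXN 0.89). For OSGIN1 the log2 ratio of the mixture to untreated was 0.07, with an interval from -1.27 to 1.41 that leaves room for more than a 2-fold difference in either direction. After adjustment over all genes no member passed 0.05 for the mixture against palmitate (limma, adjusted p = 0.147 to 0.866, 1967 genes at an unadjusted p under 0.05). The same test called 5 of all 11075 genes, so the count of 0 says little about the members. Of 2 alternatives chosen after seeing the data, leaving out the small RNA genes gave 5 members (OSGIN1 with an adjusted p of 0.00150, and TXNRD1, SRXN1, NQO1 and ME1 with 0.0185 to 0.0368), beside 5.64% of all genes called. Removing the GC trend gave 0 members (adjusted p = 0.0558 to 0.848).

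A list of targets of ATF4, the factor of the amino acid and ER stress response, was read beside the members in the same libraries. Over the 3 experiments palmitate alone raised all 11 of its tested genes (limma, adjusted p under 0.05), beside 6.59% of all genes. The median log2 ratio of that response was 2.69, beside 1.41 for the members. In experiment 2, 9 of the 11 were past 2-fold higher with both fatty acids than untreated, beside 1.12% of all genes. The median log2 ratio of the 11 was 1.97, where the 8 members had a median of -0.02. ASNS, asparagine synthetase, was at 60.7 FPKM untreated, 447 FPKM with palmitate and 318 FPKM with both. DDIT4, an inhibitor of mTORC1 signalling, was at 20.4, 463 and 399 FPKM in that order. Against palmitate alone, 5 of the 11 ATF4 targets were past 2-fold lower with both and 2 past 2-fold higher. Neither ASNS nor DDIT4 was among the 5 past 2-fold lower, so these genes do not stand for the whole list. Over all genes these shares were 10.2% and 9.22%. The median log2 ratio of the 11 to palmitate was -0.49, beside -1.93 for the members. Of the 26 other NRF2 targets 2 were past 2-fold higher with both fatty acids, beside the same 1.12%, and the median of the 26 was 0.02. GCLM, the regulatory subunit of glutathione synthesis, was at 28.5 FPKM untreated, 97.5 FPKM with palmitate and 24.1 FPKM with both. SLC7A11, which is also a target of ATF4, was at 1.48, 26.1 and 8.85 FPKM. The difference between the lists was not tested.

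**Figure D3:**
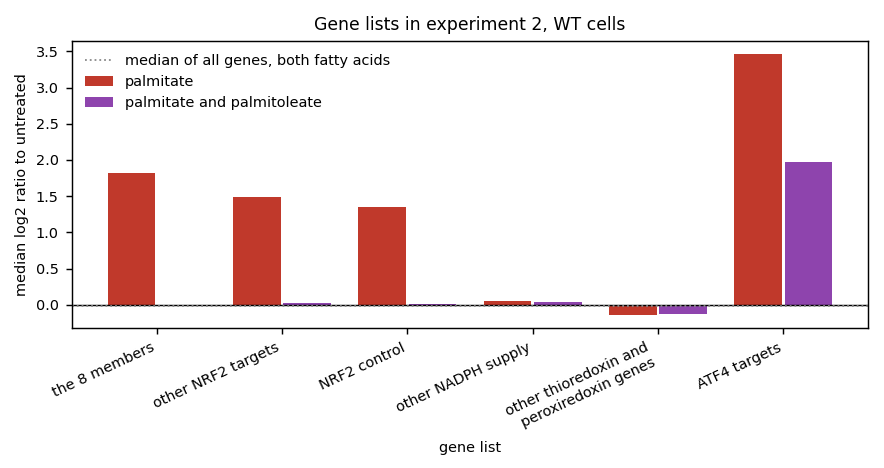
Median log2 ratio to untreated WT cells (y axis) of 6 gene lists (x axis) in experiment 2, with palmitate (red) and with palmitate and palmitoleate (purple), 1 library each. The members' median was 1.82 with palmitate and -0.02 with both, and that of the ATF4 targets was 3.47 and 1.97.

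In the GPAT4ko library given palmitate, 5 of 8 members were past 2-fold lower than in WT cells given palmitate, beside 8.06% of all genes. The WT palmitate library is the one set against the mixture above, so the counts of these comparisons are not independent. For each of these 5 the WT palmitate ratio of this experiment was the highest of the 3 experiments (NQO1 2.17, against 1.47 and 1.12). NQO1 was at 77.3 FPKM against 185 FPKM, a log2 ratio of -1.25 (95% interval -2.34 to -0.15). TXNRD1 was at 143 against 403 FPKM (log2 ratio -1.49), SRXN1 at 42.5 against 108 FPKM (-1.32) and OSGIN1 at 22.9 against 95.0 FPKM (-2.01). These 4 lay between untreated WT and WT with palmitate. TXN was at 385 against 776 FPKM (log2 ratio -1.01), below the 419 FPKM of untreated WT cells. ME1 at 15.7 FPKM (-0.80), PGD at 361 FPKM (-0.35) and PRDX1 at 987 FPKM (0.05) did not pass 2-fold. OSGIN1 was still at 22.9 FPKM in the knockout against 3.30 FPKM in untreated WT cells. No member passed 0.05 after adjustment over all genes (limma, adjusted p = 0.295 to 0.954, 1434 genes at an unadjusted p under 0.05). The same test called 8 of all 11075 genes, so the count of 0 says little about the members. A line difference without palmitate was not analysed here. NFE2L2 was at 50.9 FPKM in this library, against 31.6 FPKM in untreated WT cells and 99.1 FPKM with palmitate.

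In RNF213kd cells palmitate gave log2 ratios above 0 for 7 of 8 members, with a median of 0.81. OSGIN1 went from 0.937 to 19.4 FPKM, a log2 ratio of 3.39 (95% interval 2.05 to 4.74), beside 4.02 in WT cells of the same experiment. ME1 went from 6.11 to 15.3 FPKM (log2 ratio 1.20, beside 1.11 in WT cells). These 2 of 8 were past 2-fold higher, beside 2.74% of all genes. After adjustment over all genes no member passed 0.05 (limma, adjusted p = 0.263 for OSGIN1 and 1 for the other 7, 302 genes at an unadjusted p under 0.05). The same test called 21 of all 11075 genes, so the count of 0 says little about the members. NQO1 went from 47.1 to 81.9 FPKM (0.78, beside 1.12), TXNRD1 from 81.0 to 146 FPKM (0.84, beside 1.15) and SRXN1 from 16.3 to 29.8 FPKM (0.83, beside 1.18). The intervals of the differences between knockdown and WT responses held 0 for all 8 members. The difference was -0.62 for OSGIN1 (95% interval -2.52 to 1.28) and -0.33 for NQO1 (-1.88 to 1.21), intervals that leave room for differences of more than 2-fold.

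Knockdown and WT cells differed by less than 2-fold for all 8 members, both untreated (0 of 8, beside 0.84% of all genes past 2-fold) and with palmitate (0 of 8, beside 1.35%). With palmitate NQO1 was at 81.9 FPKM in the knockdown against 145 FPKM in WT cells (log2 ratio -0.81, 95% interval -1.91 to 0.28). PRDX1, at 1075 against 987 FPKM, was the 1 member of 8 that was higher in the knockdown with palmitate.

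**Figure D4:**
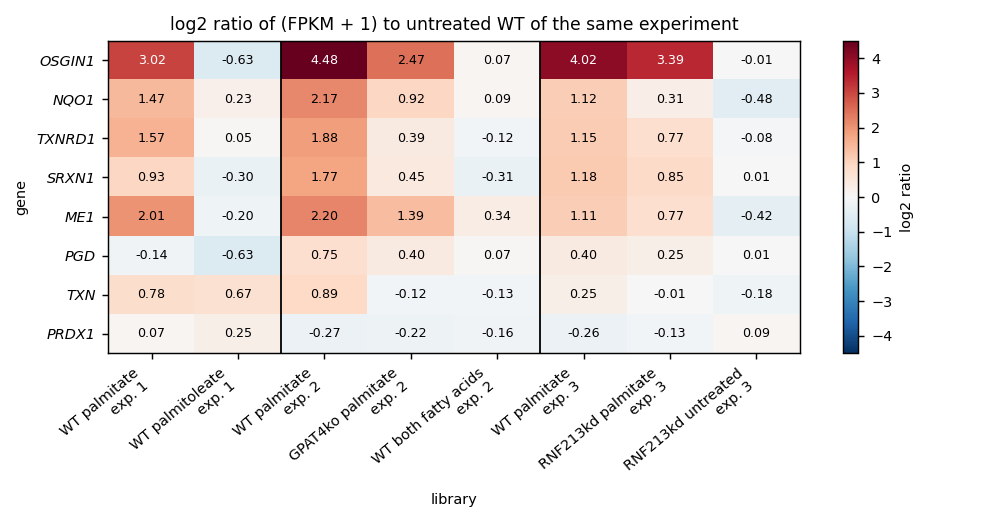
Log2 ratio of FPKM + 1 to untreated WT cells of the same experiment for 8 members (y axis) in 8 libraries (x axis), red above and blue below 0, with vertical lines between experiments. OSGIN1 ranges from -0.63 with palmitoleate to 4.48 with palmitate, and the mixture of both fatty acids lies between -0.31 and 0.34 for all 8.

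Over these 8 ratios, which share untreated controls within an experiment, the 5 members called with palmitate correlated with each other at Pearson's r of 0.80 to 0.96. With PRDX1 the same 5 correlated at -0.69 to -0.40, with PGD at 0.53 to 0.76 and with TXN at 0.33 to 0.71. The 5 were grouped after their values were seen, and these correlations are descriptions without a test. Among 8256 genes at a mean of 5 FPKM or more, no member had another member among its 3 nearest genes. The nearest were JUN for OSGIN1 (r = 0.996), C20orf111 for TXNRD1 (0.996), XPNPEP1 for SRXN1 (0.990), TSPAN31 for NQO1 (0.989) and CHD2 for ME1 (0.987).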

How the data were processed

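Per the series' design text, RNA of biological triplicates was pooled, stranded mRNA libraries were sequenced in paired ends, and reads were mapped to hg19 with TopHat2. FPKM values were made by the authors with Cuffdiff, 1 table per experiment, and are normalized within a table. Tool versions are not given in the sources used here. The tables hold 2 libraries that the labels do not name, which were not used.

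Ratios of log2(FPKM + 1) were formed only within a table. The mean of the 3 WT palmitate ratios was set against 0 by a one-sample test in limma 3.58.1, run under R 4.3.3 (intensity trend, two-sided, Benjamini-Hochberg over 11075 genes whose mean was 1 FPKM or more, adjusted p under 0.05). The experiment is the block: untreated and palmitate libraries of 1 experiment deviated together (r = 0.458, 0.634 and 0.696 across genes). Each ratio of 2 libraries was given the limma spread of the WT ratios. Libraries pool cultures, so p-values measure only the spread between experiments. The members, lists and named genes (every member, up to 4 genes with the largest change per list, the NRF2 regulators, nearest genes by correlation) were chosen with earlier results of these data known, and GCLM, ASNS, AKR1C genes, TRIM16L and HMOX2 were named in addition after their values were seen. Alternatives were a pseudocount of 0.1, no filter, 5 FPKM, centred ratios, no block, no trend, leaving out an experiment, no small RNA genes and a removed GC trend.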

Additional observations from a re-analysis of the deposited data

How the results depend on the processing

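With no replicate block, so that the pairing of libraries by experiment was ignored, 2 members (OSGIN1 and ME1) and 262 genes were called higher in place of 5 and 730. With no filter on low values 0 members and 0 genes were called. Leaving out 1 experiment at a time gave 0 to 4 members and 0 to 599 genes. The number of all genes called higher was 1234 without small RNA genes and 1475 with the GC trend removed, where 5 members were called both times. The other settings, a pseudocount of 0.1, a 5 FPKM minimum, median-centred ratios and no intensity trend, left 5 members called. Among comparisons of 2 libraries, a 1.5-fold limit in either direction gave 3 of 8 members for palmitoleate against untreated (24.7% of all genes), 5 for the RNF213kd response (11% of all genes) and 2 for RNF213kd against WT under palmitate (5.45%). It gave 7 for both fatty acids against palmitate (40.7%) and 6 for GPAT4ko against WT (35.1%). A pseudocount of 0.1 gave 1 for palmitoleate against untreated, OSGIN1 at -1.24, which was 0.14 with the GC trend removed. The cause was not tested. OSGIN1 passed an adjusted p under 0.05 (limma) for palmitoleate against palmitate without small RNA genes (0.0136, beside 0.101% of all genes) but not with the GC trend removed (0.0715). For the RNF213kd response it passed in both settings (0.0491, beside 0.0735% of all genes, and 0.0482), which were chosen after seeing the data. Read depth is unknown, and each condition other than untreated WT and WT with palmitate has 1 library.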
